A study of Mus musculus with 6 samples.

Results

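The transcript levels of 9 signal-induced transcription factors were examined in CD8+ T cells. They are *Nr4a1*, *Nr4a2*, and *Nr4a3* of the NR4A family, *Egr1*, *Egr2*, and *Egr3* of the EGR family, and *Nfatc1*, *Nfatc2*, and *Nfatc3* of the NFAT family. They were chosen by name, as factors that answer to the T cell receptor, with earlier results of these data known. All 9 were found among the 57126 genes of the count table and all 9 were among the 26154 genes tested. The 6 samples were cultured CD8+ T cells from lymph nodes and spleens of OT-I transgenic mice, whose transgenic receptor recognizes an ovalbumin peptide. All cells were expanded with nano-aAPCs, which are iron oxide nanoparticles that carry the peptide on its MHC-I molecule together with anti-CD28. The cells were harvested for total RNA on day 6. IL-2 was the only cytokine added to the 3 TEff samples, while the 3 TRM-like samples also received IL-15 and TGF-β. According to the culture protocol, IL-2 was human and used at 5 ng/ml throughout, and for TRM-like cells mouse IL-15 was used at 100 ng/ml and mouse TGF-β at 5 ng/ml. The sequencing protocol names IL-2 of the mouse and gives no dose. The cells were a bulk product of culture, and IL-15 and TGF-β were added together. Neither the age of the mice nor whether replicates came from separate mice or separate cultures is given in the labels. The p-values below therefore measure the spread between these samples, which may be technical.

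Receptor engagement raises calcium in a T cell, calcineurin removes phosphates from NFAT proteins, and these enter the nucleus. The same engagement acts through the MAP kinase pathway on serum response factor, which binds a DNA element named the CArG box, and on CREB, which binds the cAMP response element (CRE), and EGR and NR4A genes are transcribed within the first hours. EGR proteins are zinc finger factors, of which EGR2 and EGR3 are known for restraining T cells that receive signal without costimulation. NR4A proteins are orphan nuclear receptors that are widely used as readouts of receptor signal and are known for limiting effector function.

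The regions before the start of 6 of the 9 genes were searched for these elements, and *Egr2*, *Nr4a1*, and *Nr4a3* held at least 1 match. For each gene, the 200 bases before the start of the transcript that GENCODE marks as canonical were read from the GRCm39 genome, the build of the count table. *Egr2* is shown because it holds a CArG box flanked on both sides by short CRE motifs, and *Nr4a3* because it holds the most short CRE motifs. Each is written 5′ to 3′ on the plus strand, with short CRE motifs (TGACG, known as one side of the full element and read on either strand) and CArG boxes in capitals. The regions are chr10:67373492-67373691 for *Egr2* and chr4:48044953-48045152 for *Nr4a3*.
Egr2: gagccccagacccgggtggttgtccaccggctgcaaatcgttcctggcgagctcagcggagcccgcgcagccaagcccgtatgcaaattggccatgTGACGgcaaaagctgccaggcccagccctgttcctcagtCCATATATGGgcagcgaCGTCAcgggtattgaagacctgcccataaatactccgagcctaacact
Nr4a3: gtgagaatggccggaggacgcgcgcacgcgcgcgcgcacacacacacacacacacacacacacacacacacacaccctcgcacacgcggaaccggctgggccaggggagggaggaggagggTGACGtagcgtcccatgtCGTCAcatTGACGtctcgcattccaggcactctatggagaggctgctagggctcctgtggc
In *Egr2*, the CArG box began 65 bases before the start, and the short CRE motifs began 104 and 48 bases before it. *Nr4a3* held short CRE motifs at 79, 61, and 53 bases, and *Nr4a1* held them at 166 and 146 bases. At 195 bases, *Nr4a1* also held the letters of a TATA box (TATAAA), on the strand opposite to the gene. No CArG box was matched in either NR4A gene.

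Over the 200 bases before 21770 protein-coding genes, 1.08% held a CArG box and 16.0% held a short CRE motif. The regions of *Nr4a2*, *Nfatc2*, and *Nfatc3* held neither. The 8 letters of the full CRE (TGACGTCA), the EGR site (GCGNGGGCG), and the NR4A site named NBRE (AAAGGTCA) were searched on both strands too, and they were found in 1.59%, 4.10%, and 0.988% of all regions and in none of the 6 members searched. A full CRE would also count as a short CRE motif. The 5-letter NFAT core (GGAAA), found in 49.4% of all regions, was matched once in *Nfatc2*, at 187 bases, and in no other member searched. TATAAA was present in 9.57% of all regions. *Egr1*, *Egr3*, and *Nfatc1* were not analysed for motifs here. A match describes letters in this window and not binding.

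**Figure D1:**
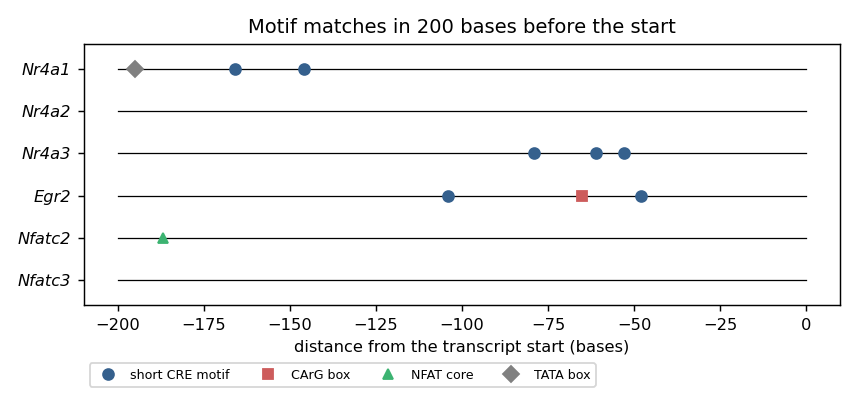
Position of each motif match in the 200 bases before the start of 6 genes, with the distance from the transcript start in bases on the x axis and one line per gene. *Egr2* shows a CArG box at 65 bases before the start, between short CRE motifs, and *Nr4a2* and *Nfatc3* show no match.

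Between 18319013 and 23622621 reads per sample were counted on genes. Levels are given as CPM, the counts of a gene relative to library totals adjusted by edgeR's TMM method, and group differences are log2 fold changes of TRM-like over TEff from the same fit over all genes. A gene was called where its Benjamini-Hochberg adjusted p was below 0.05 and its absolute log2 fold change was above 0.58. All 8 marker genes of CD8 T cells were at 94.0 to 1166 CPM in every sample, and 1 of them, *Cd8a*, was called. It rose from 436 ± 13.4 CPM in TEff to 963 ± 32.4 CPM in TRM-like cells (SD, n = 3 each), with a log2 fold change of 1.14 and an adjusted p of 0.0022. *Cd2* went the other way, from 275 ± 13.1 to 176 ± 23.6 CPM, and was not called (log2 fold change -0.64, adjusted p = 0.0504). For 3 of the 8 markers TRM-like replicate 3 was the lowest of the 6 samples, beside 24.0% of all genes with a mean count of at least 10. The 14 markers of B cells, CD4 T cells, myeloid, dendritic, and NK cells, red cells, and platelets were each at 0 to 2.02 CPM and summed to 2.32 to 4.10 CPM in TEff samples and 2.40 to 4.81 CPM in TRM-like samples. TRM-like replicate 3 stood apart from the other samples of its group. The chi-square per gene, which is near 1 when counting noise alone separates a pair of samples, was 96.3 and 112 between it and TRM-like replicates 1 and 2, and 7.26 between those. It was 3.73 to 26.1 among TEff samples. Between TRM-like replicate 3 and TEff replicates 1, 2, and 3 it was 41.9, 82.4, and 37.4, so that this sample was closer to each TEff sample than to either of the other TRM-like samples. The number of genes with any count was 35130 and 35559 in TRM-like replicates 1 and 2, against 24229 to 24908 elsewhere. Over 1546 olfactory and vomeronasal receptor genes, which T cells are not known to use, TRM-like replicates 1 and 2 had 0.652 and 0.662 counts per kilobase, against 0.0690 to 0.113 in the others. At that rate, a gene of the length of *Egr3* would collect 2.68 and 2.72 counts in TRM-like replicates 1 and 2, where *Egr3* had 607 and 557.

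None of the 9 factors was called between TRM-like and TEff cells, where 3.01% of all genes tested were called. *Nfatc3* alone had an unadjusted p below 0.05. DESeq2 and limma-voom also called 0 of 9. By sign, 3 factors had a positive log2 fold change and 6 a negative one, with a median of -0.18, beside a median of 0.02 over all genes tested. No factor had groups that did not overlap, where 20.3% of all genes tested had such groups. For 7 of the 9 factors, all but *Nfatc2* and *Nfatc3*, TRM-like replicate 3 was the lowest of the 6 samples. For *Nfatc1* and *Nfatc2*, the spread was wider among TEff samples (SD 20.0 and 12.1 CPM) than among TRM-like samples (SD 8.31 and 5.36 CPM), with TEff replicate 2 the highest. Over the 16718 genes with a mean count of at least 10, TRM-like replicate 3 was the lowest of the 6 samples for 24.0%. The median level of TRM-like replicate 3 over the mean of replicates 1 and 2 was 0.321 for the 9 factors and 0.982 for those genes.

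**Figure D2:**
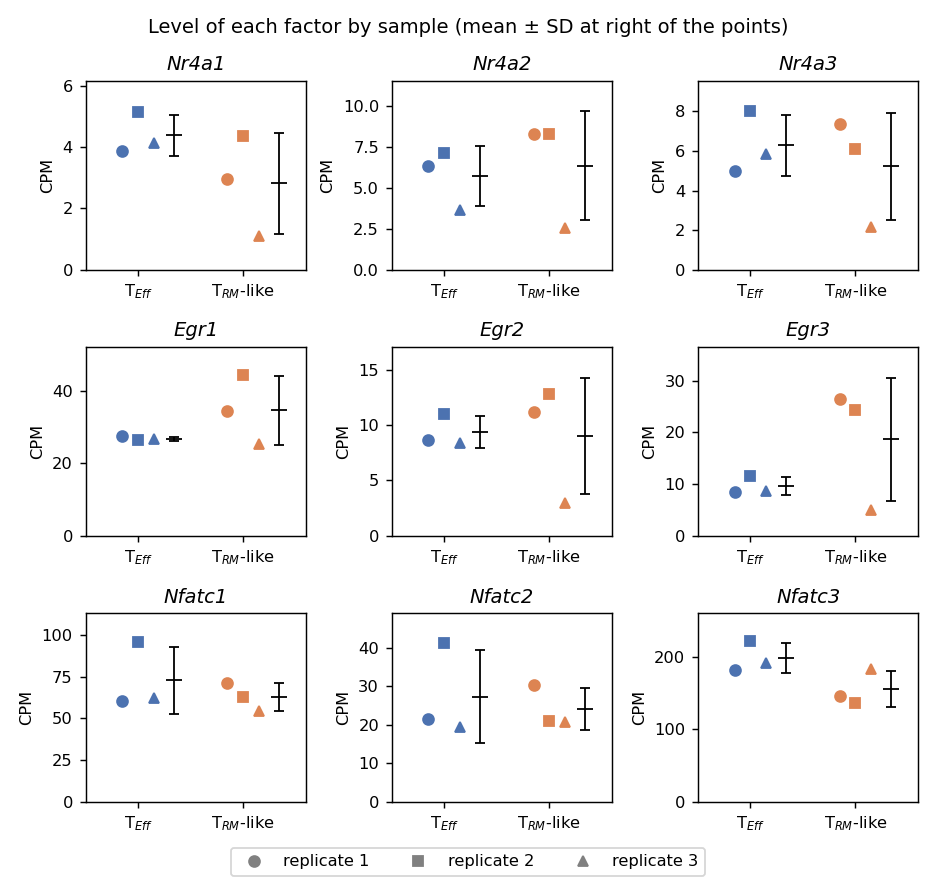
Level of each factor in CPM on the y axis of each panel, for the 3 TEff samples (blue) and the 3 TRM-like samples (orange), with a marker shape per replicate number and the mean ± SD of the 3 samples to the right of the points. TRM-like replicate 3 (orange triangle) is the lowest point in 7 of the 9 panels, all but *Nfatc2* and *Nfatc3*.

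Of the EGR factors, *Egr3* had the largest difference between the groups. It stood at 8.46, 11.6, and 8.68 CPM in TEff replicates 1, 2, and 3, and at 26.5, 24.3, and 5.03 CPM in TRM-like replicates 1, 2, and 3. TRM-like replicates 1 and 2 were thus above every TEff sample and TRM-like replicate 3 below every one, so that the groups overlapped. The counts behind these levels were 157 to 230 in TEff samples and 607, 557, and 109 in TRM-like replicates 1, 2, and 3. Counting error alone gave a 95% Poisson interval of 24.4 to 28.7 CPM for TRM-like replicate 1 and of 4.13 to 6.06 CPM for replicate 3, far narrower than the gap between those samples. The means were 9.59 ± 1.78 CPM in TEff and 18.6 ± 11.8 CPM in TRM-like cells (SD, n = 3 each). The log2 fold change was 0.96 ± 0.49 (SE), with a 95% interval of -0.16 to 2.07 and an adjusted p of 0.429.

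Whether *Egr3* was called depended on TRM-like replicate 3 and on the filter. Without that sample, its log2 fold change was 1.40 ± 0.15 and its adjusted p 2.53e-05, which passed the threshold, in a fit that called 14.0% of 25478 genes. In the 5 fits that left out one of the other samples, it was 0.62 to 1.12 and did not pass. It also passed with no filter on low counts, where 4.42% of genes were called, at a log2 fold change of 0.95 and an adjusted p of 8.08e-05. With the replicate number of the labels as a block, a fit that called 7.78% of genes, 2 factors passed. They were *Egr3* at 0.71 (adjusted p = 0.0082) and *Nr4a1* at -0.76 (adjusted p = 0.0497). Whether the numbers pair the samples is not known.

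*Egr2*, the close paralog of *Egr3*, stood at 8.69, 11.0, and 8.34 CPM in TEff samples and at 11.2, 12.8, and 3.00 CPM in TRM-like samples. The order of the samples was that of *Egr3*, with TRM-like replicates 1 and 2 above and replicate 3 below all TEff samples, but replicates 1 and 2 lay nearer to the TEff samples. The 95% Poisson intervals of TRM-like replicates 1 and 2 overlapped that of TEff replicate 2. The log2 fold change was -0.06 ± 0.43 (adjusted p = 0.968), and it was 0.35 ± 0.15 without TRM-like replicate 3 (adjusted p = 0.139). *Egr1*, the family member that answers soonest to growth factor and receptor signals, stood at 27.4, 26.4, and 26.6 CPM in TEff samples and at 34.3, 44.3, and 25.3 CPM in TRM-like samples. The TEff samples were closely alike and TRM-like replicate 3 fell just below them, with a 95% Poisson interval that overlapped theirs. The log2 fold change was 0.37 ± 0.19 (adjusted p = 0.439), and 0.54 ± 0.12 without TRM-like replicate 3, with an adjusted p of 0.0075 and a size still under the fold threshold.

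The NR4A factors had the lowest mean levels per length of the 9 in both groups. *Nr4a1*, which encodes NUR77, stood at 3.89, 5.16, and 4.14 CPM in TEff samples and at 2.97, 4.37, and 1.11 CPM in TRM-like samples, with 24 to 102 counts per sample. Only TRM-like replicate 2 was within the TEff range, and the other TRM-like samples were below it. The log2 fold change was -0.64 ± 0.41 (adjusted p = 0.543), the most negative of the 9, and -0.27 without TRM-like replicate 3. *Nr4a2*, which encodes NURR1, stood at 6.31, 7.14, and 3.65 CPM in TEff samples and at 8.24, 8.26, and 2.54 CPM in TRM-like samples. TRM-like replicates 1 and 2 were above every TEff sample and replicate 3 below, but the 95% Poisson intervals overlapped those of the nearest TEff samples. Its log2 fold change was 0.15 ± 0.42 (adjusted p = 0.905), and 0.52 without TRM-like replicate 3 (adjusted p = 0.126). *Nr4a3*, which encodes NOR1, stood at 4.98, 8.00, and 5.86 CPM in TEff samples and at 7.37, 6.12, and 2.17 CPM in TRM-like samples. TRM-like replicates 1 and 2 lay within the TEff range and replicate 3 lay below it. Its log2 fold change was -0.26 ± 0.39 (adjusted p = 0.814), and 0.10 without TRM-like replicate 3.

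NFAT factors carry the calcium signal to the nucleus, and *Nfatc3* and *Nfatc1* had the highest mean levels per length of the 9 in both groups. *Nfatc3* stood at 182, 221, and 191 CPM in TEff samples and at 146, 136, and 183 CPM in TRM-like samples. TRM-like replicate 3 was within the TEff range, just above TEff replicate 1, and replicates 1 and 2 were below every TEff sample. The log2 fold change was -0.35 ± 0.16, with an unadjusted p of 0.049 and an adjusted p of 0.335. Without TRM-like replicate 3 it was -0.50 ± 0.12 (adjusted p = 0.008), which was under the fold threshold. *Nfatc1*, whose short isoform is known to be induced by NFAT itself, stood at 60.3, 96.0, and 62.5 CPM in TEff samples and at 71.1, 62.6, and 54.5 CPM in TRM-like samples. *Nfatc2*, the NFAT protein long known from resting T cells, stood at 21.4, 41.2, and 19.3 CPM in TEff samples and at 30.3, 21.1, and 20.8 CPM in TRM-like samples. In both, TEff replicate 2 was the highest of the 6 samples. The log2 fold changes were -0.22 ± 0.20 (adjusted p = 0.683) for *Nfatc1* and -0.18 ± 0.29 (adjusted p = 0.832) for *Nfatc2*. Without TEff replicate 2 they were 0.03 and 0.24, so that this 1 sample set their sign. Counts per gene do not part the isoforms of *Nfatc1*, and RNA does not show how much NFAT protein was in the nucleus.

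**Figure D3:**
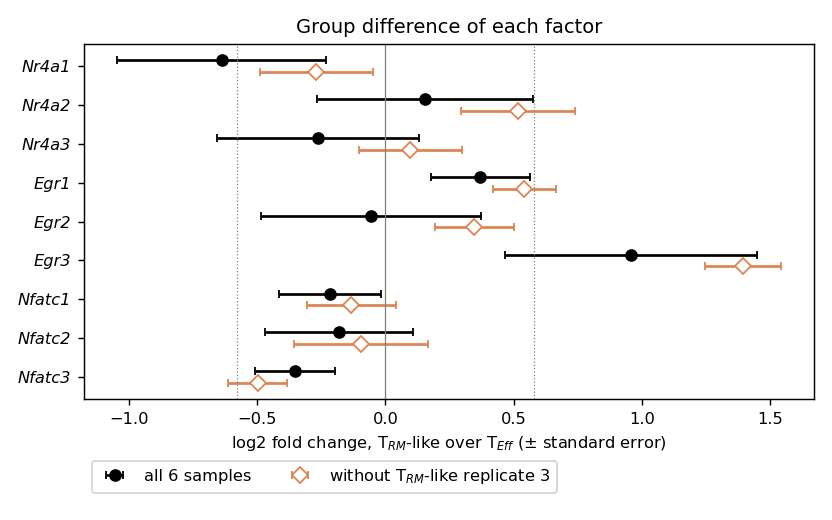
Log2 fold change of TRM-like over TEff on the x axis for each factor, with bars of ± 1 standard error, from all 6 samples (black) and without TRM-like replicate 3 (open diamonds), and dotted lines at the fold threshold of 0.58 in each direction. *Egr3* moves from 0.96 to 1.40 and is the one factor called without that sample.

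The factors differed in how far TRM-like replicate 3 lay from the others. In *Nr4a1*, *Nr4a2*, *Nr4a3*, *Egr2*, and *Egr3*, 5 of the 9, its level was under 50% of the mean of TRM-like replicates 1 and 2, and 8.92% of genes with a mean count of at least 10 showed that. In *Nr4a2*, *Egr1*, *Egr2*, and *Egr3*, 4 of the 9, TRM-like replicates 1 and 2 were above and replicate 3 below every TEff sample. By the same point values, 7.49% of the same genes showed that. Only for *Egr3* did the 95% Poisson intervals hold all of these samples apart. For *Nr4a2*, *Egr1*, and *Egr2*, part of the order lay within counting error, as intervals of TRM-like and TEff samples overlapped. These patterns were seen in these samples and then counted, so they are a description. They moved with the library that stood apart, and with the wider coverage of silent genes in TRM-like replicates 1 and 2, whose part in them was not tested. In bulk RNA, fewer cells with a transcript and less of it per cell cannot be told apart. Without TRM-like replicate 3, the median log2 fold change of the 9 factors was 0.10, beside 0.02 over all genes.

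Levels of different genes can be set side by side only per length, as RPKM, the CPM divided by the gene length in kilobases from the count table. On this scale, the order in TEff cells was *Nfatc3* at 32.1 ± 3.26, *Nfatc1* at 9.81 ± 2.69, *Egr1* at 5.98 ± 0.123, *Nfatc2* at 3.26 ± 1.44, *Egr2* at 2.94 ± 0.460, *Egr3* at 2.34 ± 0.434, *Nr4a1* at 1.64 ± 0.252, *Nr4a2* at 1.52 ± 0.487, and *Nr4a3* at 1.10 ± 0.271 RPKM (SD, n = 3). The sample ranges of neighbours did not overlap down to *Egr1* over *Nfatc2*, and again between *Egr3* and *Nr4a1*. The ranges overlapped between *Nfatc2* and *Egr2*, between *Egr2* and *Egr3*, and between the NR4A neighbours. In TRM-like cells, *Nfatc3* led at 25.1 ± 3.97 RPKM, followed by *Nfatc1* at 8.44 ± 1.12, *Egr1* at 7.73 ± 2.12, and *Egr3* at 4.53 ± 2.88. *Egr3* thus moved from the sixth place to the fourth, above *Nfatc2* at 2.88 ± 0.640 and *Egr2* at 2.82 ± 1.65, but in this group every pair of neighbours below *Nfatc3* had overlapping ranges. *Nr4a2*, *Nr4a1*, and *Nr4a3* closed the order at 1.70 ± 0.881, 1.05 ± 0.611, and 0.912 ± 0.475 RPKM. Among the protein-coding genes tested, the factors' mean levels lay between percentile 31.9 for *Nr4a3* and percentile 88.2 for *Nfatc3*.

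**Figure D4:**
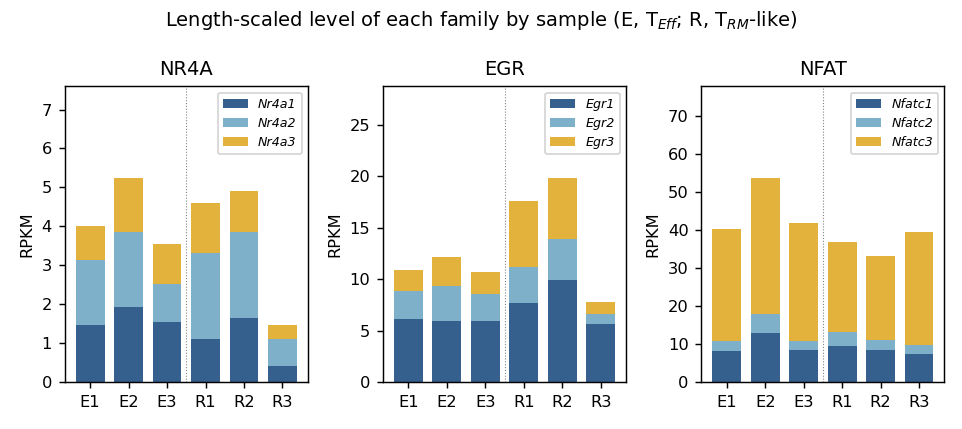
Stacked levels in RPKM on the y axis of the 3 members of each family, one bar per sample, with E1 to E3 the TEff samples and R1 to R3 the TRM-like samples. The EGR bar is 17.6 and 19.8 RPKM in R1 and R2 and 7.81 in R3, the NR4A bar is lowest in R3 at 1.47, and *Nfatc3* makes up most of each NFAT bar.

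Summed over its members, the NR4A family stood at 4.01, 5.23, and 3.55 RPKM in TEff samples and at 4.60, 4.91, and 1.47 RPKM in TRM-like samples. The EGR family stood at 10.9, 12.2, and 10.7 RPKM and at 17.6, 19.8, and 7.81 RPKM, and the NFAT family at 40.2, 53.6, and 41.8 RPKM and at 36.8, 33.1, and 39.4 RPKM. TRM-like replicate 3 was thus the lowest sample for the NR4A and EGR sums but the highest TRM-like sample for the NFAT sum. For the NFAT sum, all 3 TRM-like samples lay below all TEff samples, the nearest being 39.4 and 40.2 RPKM. No NFAT factor alone had groups that did not overlap, and 20.3% of all genes tested had such groups. These sums were not tested.

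The share of each member within its family does not depend on how libraries are scaled. *Nr4a1* held 36.2%, 36.8%, and 43.6% of the length-scaled NR4A transcripts in TEff samples and 24.1%, 33.2%, and 28.1% in TRM-like samples. *Nr4a2* held 42.1%, 36.4%, and 27.5% in TEff samples and 47.9%, 45.0%, and 46.1% in TRM-like samples. *Egr2* held 25.0%, 28.4%, and 24.5% of the EGR transcripts in TEff samples and 19.9%, 20.3%, and 12.0% in TRM-like samples. In these 3 of the 9 shares the groups did not overlap, with TRM-like samples lower for *Nr4a1* and *Egr2* and higher for *Nr4a2*. For levels, 20.3% of all genes tested had groups that did not overlap. Shares were not computed for other families, so a background for shares is lacking and these 3 are a description. The nearest *Nr4a1* shares, 36.2% in TEff replicate 1 and 33.2% in TRM-like replicate 2, rested on 85 and 100 *Nr4a1* counts. The exact two-sided permutation test gave p = 0.10 for each, the smallest that 3 against 3 samples allow, so that no share could pass 0.05. Any share whose groups do not overlap gives this p. *Egr3* held 20.7 ± 2.32% in TEff samples and 36.6%, 29.9%, and 15.7% in TRM-like samples, and TRM-like replicate 3 was again below all TEff samples. *Nfatc3* held 71.5 ± 4.16% of the NFAT transcripts in TEff and 68.7 ± 5.68% in TRM-like samples (SD, n = 3 each), and the exact permutation p was 0.70. The shares of one family sum to 100%, so they are not independent of each other. With counts not divided by length, *Nr4a1* held 27.1% in TEff and 19.4% in TRM-like samples, and its length in the count table is the shortest of the 3.

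Of the relatives of the 9 factors outside the chosen set, *Egr4* and *Nfatc4* had few counts and *Nfat5* was not called. *Egr4* had 2 counts in TRM-like replicate 1 and none in the other 5 samples, and *Nfatc4* had 3 and 2 counts in TRM-like replicates 1 and 2 and none elsewhere. Neither passed the filter. *Nfat5*, which answers to osmotic stress and not to calcineurin, stood at 24.3 to 44.0 CPM in TEff and 26.5 to 51.7 CPM in TRM-like samples, with a log2 fold change of 0.24 ± 0.28 (adjusted p = 0.764).

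Upstream of NFAT, none of the 16 genes tested for calcium release, calcium entry, calmodulin, and calcineurin was called in either direction, and their median log2 fold change was 0.01. Of them, 1 (*Orai2*) had an unadjusted p below 0.05. The smallest p-values were those of *Orai2* and *Orai3*, which encode subunits of calcium entry channels. *Orai2* stood at 81.1, 106, and 80.1 CPM in TEff and at 69.2, 74.1, and 57.1 CPM in TRM-like samples, with a log2 fold change of -0.41 ± 0.16 (adjusted p = 0.276). For *Orai3*, the log2 fold change was 0.29 ± 0.15 (adjusted p = 0.430). Of the calcineurin and NFAT inhibitors and NFAT kinases, 0 of 11 tested were called and the median was 0.08, and 0 had an unadjusted p below 0.05. By DESeq2 too, 0 genes of these lists passed. By edgeR, 3.01% of all genes tested were called. *Rcan1*, a calcineurin inhibitor that NFAT is known to induce, stood at 8.64, 6.43, and 7.13 CPM in TEff and at 7.63, 6.90, and 9.64 CPM in TRM-like samples. The groups overlapped, and the log2 fold change was 0.12 ± 0.20 (adjusted p = 0.837). TRM-like replicate 3 was the highest of the 6 samples for *Rcan1*, unlike for the 7 factors where it was the lowest. The 2 smallest p-values of this list were those of *Homer2*, a scaffold protein with 0 to 9 counts per sample and an adjusted p of 0.416, and *Gsk3b*, a kinase that phosphorylates NFAT for export, with a log2 fold change of 0.24 ± 0.14 (adjusted p = 0.501). *Rcan2* had no count in 4 samples and was not tested.

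Among the 13 factors that drive EGR and NR4A transcription or partner with their proteins, 1 was called, 7.69% beside 3.01% of all genes tested. This list and the others were chosen with earlier results of these data known, so their called shares are a description. The called gene was higher in TRM-like cells and none was called lower, with a median of -0.04. It was *Mef2a*, a MADS box factor of the family known to act on *Nr4a1*, which rose from 94.6, 105, and 109 CPM in TEff to 224, 205, and 142 CPM in TRM-like samples. Its log2 fold change was 0.89 ± 0.18 (adjusted p = 0.035), and the call was lost without each sample except TRM-like replicate 3 (adjusted p 0.124 to 0.206). *Mef2c* was low, at 1 to 27 counts, with a log2 fold change of -2.59 ± 0.67 (adjusted p = 0.087), and it was not called. It was called lower by DESeq2 (adjusted p = 0.030), with no filter (adjusted p = 0.0018), with the replicate block (adjusted p = 0.0024), and without TRM-like replicate 3 (adjusted p = 0.030). *Nab2*, a corepressor that binds EGR proteins and is itself an EGR target, stood at 31.7, 31.8, and 32.3 CPM in TEff and at 37.5, 38.3, and 17.4 CPM in TRM-like samples. The TEff samples were closely alike, TRM-like replicates 1 and 2 were above them and replicate 3 below, the order seen for *Egr1*, *Egr2*, *Egr3*, and *Nr4a2*. Its log2 fold change was -0.04 ± 0.26 (adjusted p = 0.965), and 0.24 without TRM-like replicate 3.

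Of 16 other immediate early genes, 1 was called higher and 2 lower in TRM-like cells, with a median of -0.07. The called share was 18.8%, beside 3.01% of all genes tested, in a list chosen with earlier results of these data known. A mean count of at least 10 was reached by 16718 of the 26154 genes tested and by all 16 of this list. *Jun*, a subunit of AP-1, which binds DNA together with NFAT, rose from 14.4, 24.5, and 13.7 CPM in TEff to 64.1, 72.7, and 54.1 CPM in TRM-like samples, a log2 fold change of 1.86 ± 0.23 (adjusted p = 0.00376). All 3 TRM-like samples, replicate 3 included, were above all TEff samples, and the call held in each of the 15 alternatives. *Ier3*, a survival gene, fell from 24.4, 28.9, and 27.0 CPM to 5.32, 4.94, and 9.13 CPM, a log2 fold change of -2.05 ± 0.24 (adjusted p = 0.00232). *Atf3*, a stress-induced factor of the CREB family, fell from 3.43, 2.02, and 2.87 CPM to 0.393, 0.743, and 0.507 CPM, a log2 fold change of -2.33 ± 0.35 (adjusted p = 0.00807). Its call was lost without TEff replicate 1 or TEff replicate 3 (adjusted p 0.065 and 0.057). *Fos*, the partner of *Jun* in AP-1, was at 0.607 to 1.01 CPM in TEff and 1.00 to 1.20 CPM in TRM-like samples and was not called (log2 fold change 0.40 ± 0.32, adjusted p = 0.627). TRM-like replicate 3 was the lowest of the 6 samples for 8 of these 16 genes, beside 24.0% of all genes with a mean count of at least 10.

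**Figure D5:**
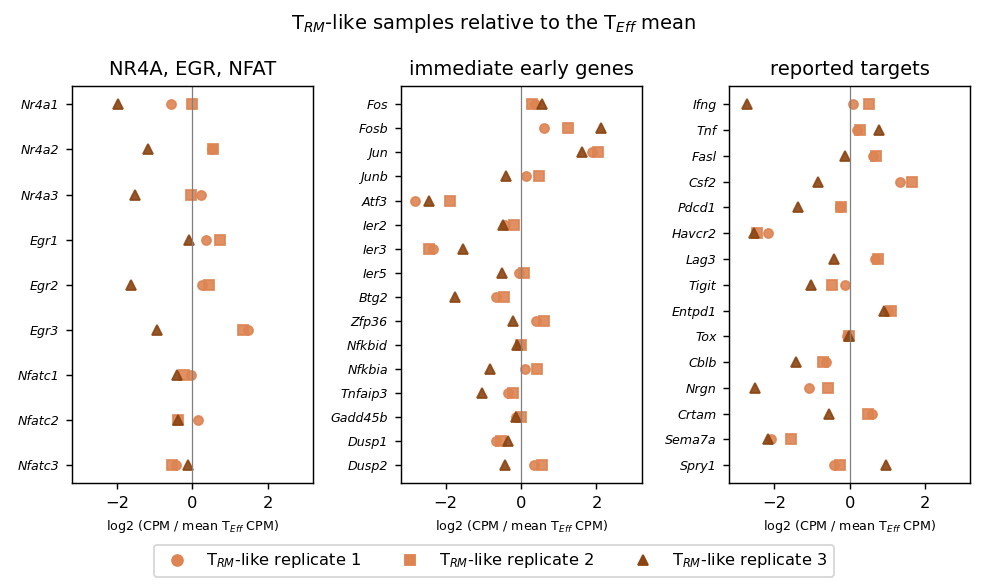
Level of each TRM-like sample relative to the mean of the 3 TEff samples on the x axis (log2 of the CPM ratio), one row per gene, for the 9 factors, the immediate early genes, and the reported targets with a mean count of at least 10. TRM-like replicate 3 (dark triangles) is left of replicates 1 and 2 for the NR4A and EGR genes, while for *Jun*, *Havcr2*, and *Entpd1* all 3 samples lie on one side of the TEff mean.

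Of 10 genes used as readouts of T cell activation, 1 was called in each direction, with a median of -0.06. That was a called share of 20%, beside 3.01% of all genes tested, in a list likewise chosen with earlier results known. *Cd69*, a surface protein that rises early after activation and marks resident memory T cells, rose from 42.7, 39.1, and 44.8 CPM to 77.4, 79.8, and 60.9 CPM, a log2 fold change of 0.79 ± 0.14 (adjusted p = 0.022). *Cd5*, a surface inhibitor whose level follows receptor signal strength, fell from 162, 172, and 148 CPM to 91.1, 96.7, and 74.5 CPM, a log2 fold change of -0.88 ± 0.14 (adjusted p = 0.013). Leaving out single samples ended the *Cd69* call in 5 of 6 fits, all but that without TRM-like replicate 3 (adjusted p 0.091 to 0.137), and the *Cd5* call in 4 of 6, those without any TEff sample or without TRM-like replicate 1 (adjusted p 0.052 to 0.098). TRM-like replicate 3 was the lowest sample for 3 of the 10, beside 24.0% of all genes with a mean count of at least 10.

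Of 17 tested genes reported as targets of these factors in T cells, 1 was called higher and 2 lower in TRM-like cells. The called share was 17.6%, beside 3.01% of all genes tested, and the median of the targets was -0.05. This list too was chosen with earlier results of these data known, so its shares are a description. *Entpd1*, which encodes the ectonucleotidase CD39, rose from 13.7, 15.8, and 15.7 CPM to 30.4, 32.1, and 28.0 CPM, a log2 fold change of 1.00 ± 0.13 (adjusted p = 0.00458), and its call was lost without TEff replicate 1 (adjusted p = 0.0503). *Havcr2*, which encodes the inhibitory receptor TIM-3, fell from 22.0, 19.6, and 23.9 CPM to 4.88, 3.98, and 3.74 CPM, a log2 fold change of -2.38 ± 0.17 (adjusted p = 2.09e-04). *Sema7a*, a membrane-bound semaphorin, fell from 6.77, 3.34, and 6.13 CPM to 1.26, 1.83, and 1.20 CPM, a log2 fold change of -1.91 ± 0.32 (adjusted p = 0.0144). Its call was lost without TEff replicate 1, TEff replicate 3, or TRM-like replicate 1 (adjusted p 0.101, 0.097, and 0.054). Over all 17 tested targets, 7 had groups that did not overlap, where 20.3% of all genes tested had such groups. TRM-like replicate 3 was the lowest of the 6 samples for 10 of the 15 targets with a mean count of at least 10. That was a share of 66.7%, beside 24.0% of all genes with such counts.

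On GRCm39, 3 of the 9 factors had exons that overlapped an exon of another gene on the opposite strand. They were *Nr4a1* (ENSMUSG00000023034, chr15:101151980-101172681), over 656 bases with *Gm63180*, *Nfatc2* (ENSMUSG00000027544, chr2:168318330-168443693), over 174 bases with *Gm74613*, and *Nfatc3* (ENSMUSG00000031902, chr8:106785472-106857175), over 2626 bases with *Esrp2*. The library kit marks the strand, but the setting used in counting is not given in the sources used here. The levels of these 3 genes are therefore uncertain over the shared bases, by reads gained or lost, in a direction that is not known. No exon of the other 6 was overlapped. Of these, *Nr4a2* (ENSMUSG00000026826) lies at chr2:56996842-57014331, *Nr4a3* (ENSMUSG00000028341) at chr4:48045153-48086447, and *Egr2* (ENSMUSG00000037868) at chr10:67371305-67378018.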

How the data were processed

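Total RNA from 3 TEff and 3 TRM-like samples was sequenced after stranded library preparation. Reads were trimmed with cutadapt 4.8 per the submitters' processing notes, which also name DESeq2 1.40.2, and were mapped to GRCm39 and counted on GENCODE genes with Rsubread. The authors deposited raw counts per gene, not normalized, with gene lengths in bases. The strand setting and the treatment of reads with several positions are not given in the sources used here. The study's methods mention a batch that they do not name, and none was removed here.

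Symbols came from GENCODE release 39 on the same build, in which 56620 of 57126 genes were found. The 26154 genes that had 1 count or more in 3 samples or more were tested with edgeR 4.0.16 (quasi-likelihood F test, TMM) in R 4.3.3, with Benjamini-Hochberg adjustment over all of them. The SE was taken as the absolute log2 fold change over the root of the F statistic. CPM and RPKM were computed from the counts, Poisson intervals are 95% and cover counting error only, and SDs are over 3 samples. Calls used the study's thresholds, 0.05 for the adjusted p and 0.58 for the size of the log2 fold change. Alternatives were DESeq2 1.42.0, limma-voom (limma 3.58.1), other scalings, filters, and thresholds, the replicate number as a block, each sample left out, and, chosen after seeing the data, that block on genes with 10 counts or more in all samples. The test was also run on simulated counts, and the outcome is not given here. Those counts held no sample that stood apart from its group, unlike these data.

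The members and gene lists were chosen with earlier results of these data known. Named are the 9 factors, their relatives, *Nab2*, *Rcan1*, *Cd69*, *Fos*, and *Jun*, and from each other list up to 4 called genes by smallest p, or the 2 smallest p where fewer than 2 were called.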

Additional observations from a re-analysis of the deposited data

How the results depend on the processing

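The count of 0 called factors among the 9 was the same with DESeq2, limma-voom, DESeq2 size factors, library totals alone, filterByExpr, at least 10 counts in every sample, and the adjusted p alone. It was 1 with no filter and 0 to 1 with single samples left out, the 1 being *Egr3* each time. The 9 calls in the other lists, cell type markers not counted, became 18 with no filter and 3 to 19 with single samples left out, the 19 being without TRM-like replicate 3. Of 135 refitted log2 fold changes of the factors, 8 changed sign, all with a sample left out: over those fits the range was -0.09 to 0.52 for *Nr4a2*, -0.59 to 0.10 for *Nr4a3*, -0.40 to 0.35 for *Egr2*, -0.33 to 0.03 for *Nfatc1*, and -0.38 to 0.24 for *Nfatc2*. Of the other named genes, sign changes occurred for *Nfat5* (-0.06 to 0.54), *Nab2* (-0.22 to 0.24), and *Rcan1* (-0.04 to 0.26). The cause was not tested.

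With the replicate number as a block, 2 factors were called, *Egr3* (0.71, adjusted p = 0.0082) and *Nr4a1* (-0.76, adjusted p = 0.0497), 20 genes of the other lists were called, and 7.78% of all genes were. The estimated prior degrees of freedom were infinite with the block and with no filter, against 4.97 in the main setting. With the block and at least 10 counts in every sample, 0 factors and 12 listed genes were called. Samples with the same number had correlations of -0.363, 0.372, and 0.438 in their deviations from the group means over 14822 genes. With 3 samples per group these deviations depend on each other, and TRM-like replicate 3 stood apart. The correlations therefore cannot decide whether the labels' numbers pair the samples. Low counts limit *Nr4a1* most, with 24 counts in TRM-like replicate 3.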
